A study of Mus musculus with 2 samples.

Results

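Bidirectional promoters of coding gene pairs were described in DNase-seq data from mouse spleen. A pair was taken wherever 2 protein-coding genes of GENCODE M21 (mm10) lay on opposite strands, head to head, with their most 5' transcription start sites (TSS) at most 1 kb apart. This gave 754 pairs, which hold 1487 of 21938 coding genes (6.78%). The promoters of all 20451 other coding genes were set beside them. The samples were spleens of 2 male B6CASTF1/J mice aged 2 months, the first-generation offspring of C57BL/6J and CAST parents. Labels number them biological replicates 2 and 1, here animal 2 and animal 1, and both name the same strain donor. Both carry the same genotype and neither was treated, so the series has 1 group and no contrast. Whole spleen is a mixture of cell types. Pairs are named by the minus-strand gene, then the plus-strand gene.

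DNase I cuts chromatin where nucleosomes are displaced, and clusters of cuts appear as peaks, mostly over promoters and enhancers. A footprint is a short stretch inside a peak that is cut less than its surroundings, as happens where a protein covers the DNA. In a bidirectional promoter, a pair of divergent genes starts from the ends of a shared stretch of DNA. Such promoters are known to be rich in CpG and poor in TATA boxes, and many serve DNA repair, mitochondrial, cell cycle and other housekeeping genes.

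The stretch between the start sites of a few pairs is shown first, since the results turn on what lies there. Each is the mm10 plus strand from 5' to 3', between but not including both TSS. Capitals mark bases inside a footprint of both animals. The sequence is that of the reference genome, and the CAST copy in these animals may differ from it. The first 5 pairs had a peak in both animals, the next pair had the highest mean height of both animals among the replication-dependent histone pairs and the one after it the lowest, and the last 2 had no peak.
Hjurp/Trpm8, chr1:88277634-88277660: ggggagggacgagagggagggtccgcc
Dnajb4/Fubp1, chr3:152210303-152210421: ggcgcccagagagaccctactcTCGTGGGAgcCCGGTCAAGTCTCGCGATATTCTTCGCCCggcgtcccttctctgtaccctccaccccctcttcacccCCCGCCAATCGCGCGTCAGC
Apaf1/Ikbip, chr10:91082771-91082939: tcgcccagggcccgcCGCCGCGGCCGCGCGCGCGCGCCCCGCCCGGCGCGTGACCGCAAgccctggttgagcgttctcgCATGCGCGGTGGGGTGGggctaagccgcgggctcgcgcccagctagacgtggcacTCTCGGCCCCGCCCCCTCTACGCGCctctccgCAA
Recql/Golt1b, chr6:142387088-142387220: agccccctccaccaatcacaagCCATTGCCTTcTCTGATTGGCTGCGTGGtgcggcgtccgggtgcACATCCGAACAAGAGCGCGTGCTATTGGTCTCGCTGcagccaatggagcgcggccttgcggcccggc
Psmb1/Tbp, chr17:15499752-15499887: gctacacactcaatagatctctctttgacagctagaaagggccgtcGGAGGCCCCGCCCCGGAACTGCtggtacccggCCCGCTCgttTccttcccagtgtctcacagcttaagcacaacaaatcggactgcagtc
Hist1h2bf/Hist1h2ad, chr13:23574197-23574380: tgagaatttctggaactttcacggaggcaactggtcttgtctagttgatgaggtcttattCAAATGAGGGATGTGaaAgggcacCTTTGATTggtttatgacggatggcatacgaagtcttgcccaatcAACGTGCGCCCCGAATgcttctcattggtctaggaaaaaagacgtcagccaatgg
Hist1h2ae/Hist1h2bg, chr13:23571221-23571395: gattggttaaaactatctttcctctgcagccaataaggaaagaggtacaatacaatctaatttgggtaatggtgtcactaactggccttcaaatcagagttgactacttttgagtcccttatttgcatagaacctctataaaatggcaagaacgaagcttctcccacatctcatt
Ppp1r3d/Fam217b, chr2:178414473-178414523: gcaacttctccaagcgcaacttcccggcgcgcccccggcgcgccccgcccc
Best1/Rab3il1, chr19:10001634-10001668: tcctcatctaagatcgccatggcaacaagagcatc

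Footprints of both animals covered 57 of the 119 bases between Dnajb4 and Fubp1 and 89 of the 169 between Apaf1 and Ikbip. They covered 40 of 184 bases in Hist1h2bf/Hist1h2ad and 0 of 175 in Hist1h2ae/Hist1h2bg. In Hjurp/Trpm8, with 27 bases, both TSS lay under a peak of 220 bp in each animal, and none of the bases between them lay in footprints of both.

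As facts of the whole series, the longer of each library's peak lists held 77231 peaks in animal 2 and 79246 in animal 1. Promoters of all 7 B cell markers held a peak in both animals, as did those of 5 of 6 T cell, 2 of 5 macrophage, 1 of 4 erythroid and 1 of 7 other-tissue markers. The remaining listed markers had no peak in 1 or both animals within 1 kb of the TSS, among them the macrophage genes Csf1r and Adgre1. Fewer cells with an open site and less opening per cell cannot be told apart in such bulk tissue.

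Most pairs held a peak. Windows ran from 200 bp outside 1 TSS to 200 bp outside the other, and a peak counted when it overlapped the window by at least 1 bp. A peak was present at 706 pairs (93.6%) in animal 2 and at 705 pairs (93.5%) in animal 1. Other coding promoters held one in 49.9% of cases in animal 2 and 48.9% in animal 1, in a window of 531 bp, about the median pair window. The difference was 44.2 ± 0.577 percentage points (mean ± SD, n = 2 animals). A pair window spans 2 coding starts and counts a peak at either, while the other windows are built on 1 start. With 200 bp on each side of each TSS the difference was 42.1 points, though such windows of close pairs also reach the partner's start. The part of the second start in the difference was not tested further. In both animals, 703 pairs (93.2%) had a peak, against 47.2% of other promoters. The animals disagreed about few pairs, 3 with a peak in animal 2 alone and 2 in animal 1 alone.

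Where a peak was present, it was higher at pairs taken as a whole, though not in every gene class (below). Height is the authors' signal value for a peak, and the strongest peak of a window stands for it. The median was 10.7 at pairs and 6.08 at other promoters in animal 2, and 8.91 at pairs and 5.14 at others in animal 1. On the log2 scale the ratio of the medians, pairs over others, was 0.81 in animal 2 and 0.79 in animal 1. Both animals thus gave nearly the same ratio although their scales differed. The strongest peak of a pair may lie at either of its 2 starts. With 200 bp on each side of each TSS the mean ratio was 0.77. The lower quartiles were further apart than the upper. In animal 2 the lower quartile was 6.40 at pairs and 1.91 at others, and the upper 14.8 at pairs and 11.1 at others. In animal 1 the lower quartile was 5.84 at pairs and 1.78 at others, and the upper 12.8 at pairs and 9.42 at others. Shares with a peak in the highest 10% of a library's list were counted over all windows, with or without a peak. They were 69.4% of pairs against 23.3% of others in animal 2, and 72.4% against 23.7% in animal 1. These shares thus also carry the difference in how often a peak was present. The highest peaks of all coding promoters were not at pairs, for the maximum was 30.2 at pairs and 61.7 at others in animal 2. With 2 animals of 1 group no test was possible, and promoters of 1 library are not replicates, so these are descriptions set beside the spread between animals.

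**Figure D1:**
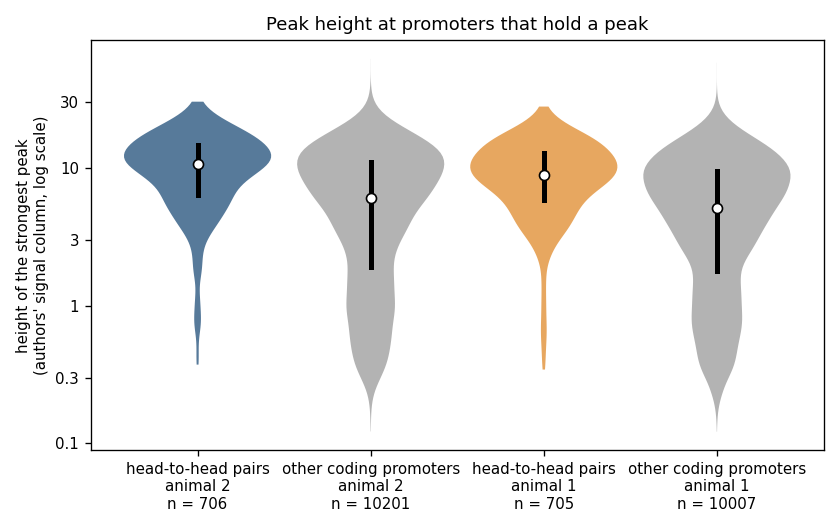
Height of the strongest peak (authors' signal column, log scale) at promoters that hold a peak, by set and animal. White points are medians and black bars run from the lower to the upper quartile. Pairs (medians 10.7 in animal 2 and 8.91 in animal 1) lack most of the low tail seen at other promoters (medians 6.08 and 5.14).

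Footprints were also more numerous at pairs. A pair window held 6.96 footprints in animal 2 and 6.87 in animal 1 on average (6.92 ± 0.0666, SD, n = 2), against 2.53 and 2.49 at other promoters. Among windows with a peak the means were 7.44 at pairs and 5.06 at others in animal 2, and 7.35 at pairs and 5.08 at others in animal 1. The difference thus stayed after windows without a peak were left out. Window length was matched only at the median, and counts rose with it. In peak-bearing pairs with TSS 1 to 50 bp apart the means were 5.99 in animal 2 and 6.06 in animal 1. At 251 to 500 bp they were 9.28 and 9.16. The part of window length in the difference was not tested. The widths of the strongest peaks did not separate the sets, with medians of 200 bp in animal 2 and 220 bp in animal 1 for pairs and others alike. More than 1 peak lay in 25.9% of peak-bearing pairs against 16.2% of others in animal 2, and in 22.0% against 14.3% in animal 1. By distance between the TSS, the pair share in animal 2 was 14.3% at 1 to 50 bp, 15.0% at 51 to 100 bp and 17.8% at 101 to 250 bp. In animal 1 these bins gave 11.8%, 9.83% and 14.6%. At 251 to 500 bp the shares were 55.1% in animal 2 and 47.2% in animal 1. At 501 to 1000 bp they were 62.7% and 64.4%, so the excess lay at wide pairs, whose windows are longer. Of the footprints in pair windows, 75.5% of those of animal 2 were found in animal 1, and 77.6% of those of animal 1 in animal 2. At other promoters these shares were 71.0% and 73.2%.

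Pairs were rich in CpG, and this moved with both results. The observed over expected CpG ratio (CpG o/e) of the window had a median of 0.827 at pairs and 0.514 at others, and the GC content medians were 62.6% and 54.8%. Among windows with a CpG o/e of at least 0.75, a peak was present at 98.4% of 516 pairs against 90.3% of 5982 others in animal 2, and at 98.4% against 88.5% in animal 1. Median heights in that class were 10.97 at pairs and 8.47 at others in animal 2, and 9.28 at pairs and 7.03 at others in animal 1. Between 0.4 and 0.75, a peak was present at 92.2% of 206 pairs against 66.7% of others in animal 2, and at 91.3% against 63.9% in animal 1. Median heights there were 9.99 at pairs and 4.59 at others in animal 2, and 8.51 at pairs and 4.03 at others in animal 1, further apart than in the CpG-rich class. Below 0.4 there were 32 pairs, of which 8 had a peak in animal 2 and 9 in animal 1 (25% and 28.1%), against 11.4% and 12.2% of others. Median heights of these few peaks were 2.50 at pairs and 1.43 at others in animal 2, but 1.18 at pairs and 1.27 at others in animal 1, the opposite order. Averaged over these classes in the pairs' own proportions, the difference in share was 14.0 percentage points, against 44.2 without classes, and the log2 ratio of heights was 0.58 against 0.80. Mean footprints of peak-bearing windows from a CpG o/e of 0.75 were 7.54 at pairs and 6.03 at others in animal 2. In animal 1 they were 7.46 and 6.02. Between 0.4 and 0.75 the means were 7.30 and 4.34 in animal 2, and 7.20 and 4.43 in animal 1. Below 0.4 they were 4.25 and 2.61 in animal 2, and 4.22 and 2.63 in animal 1.

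At 60.9% of peak-bearing pairs in animal 2 and 61.4% in animal 1, the strongest peak covered both divergent starts or lay between them. With pairs of overlapping starts added, the mean share was 45.2%. The median distance between the TSS was 129.5 bp, and 618 pairs (82.0%) had at most 300 bp. The strongest peak covered both TSS at 399 pairs in animal 2 (56.5%) and 402 in animal 1 (57.0%). It covered 1 TSS at 230 pairs in animal 2 and 229 in animal 1, lay strictly between them at 31 in each, and lay beyond a TSS at 46 and 43. Seen from single genes, the middle of the strongest peak lay at a median of 54.5 bp upstream of the TSS of pair members in animal 2 and 56.5 bp in animal 1 (medians of -54.5 and -56.5), against -24.5 and -26.5 bp at other genes. It was upstream of the TSS for 84.4% of pair members and 65.7% of other genes in animal 2, and for 84.6% and 66.4% in animal 1. The strongest peak of a pair was counted for both its genes, so its middle is always upstream of at least 1 of them. Other genes have no such limit, so these shares and medians differ partly by construction.

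The number of peaks at a pair went with the distance between its starts. At distances of 1 to 250 bp, a single peak covered both TSS in 73.9% of peak-bearing pairs in either animal, and separate peaks covered each TSS in 7 of 540 pairs in animal 2 and 5 of 540 in animal 1. At 251 to 1000 bp, a single peak covered both in 9 of 166 pairs in animal 2 (5.42%) and in 12 of 165 in animal 1 (7.27%). Separate peaks covered each TSS in 55 (33.1%) and 44 (26.7%) of these. Median height in animal 2 was 9.43 at 1 to 50 bp, 10.5 at 51 to 100 bp, 11.3 at 101 to 250 bp, 11.9 at 251 to 500 bp and 9.99 at 501 to 1000 bp. In animal 1 the same bins gave 7.39, 8.57, 9.80, 10.99 and 8.23. Both animals thus had their highest median at 251 to 500 bp. CpG o/e was lower in the widest bin (median 0.645) than in the shortest (0.883). Windows lengthen with distance, and those of wide pairs more often held more than 1 peak. The strongest peak was there taken from more peaks, and the part of this in the medians was not tested. Footprints per 100 bp of window were 1.38 in the shortest and 0.870 in the widest bin in animal 2, and 1.40 and 0.828 in animal 1.

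**Figure D2:**
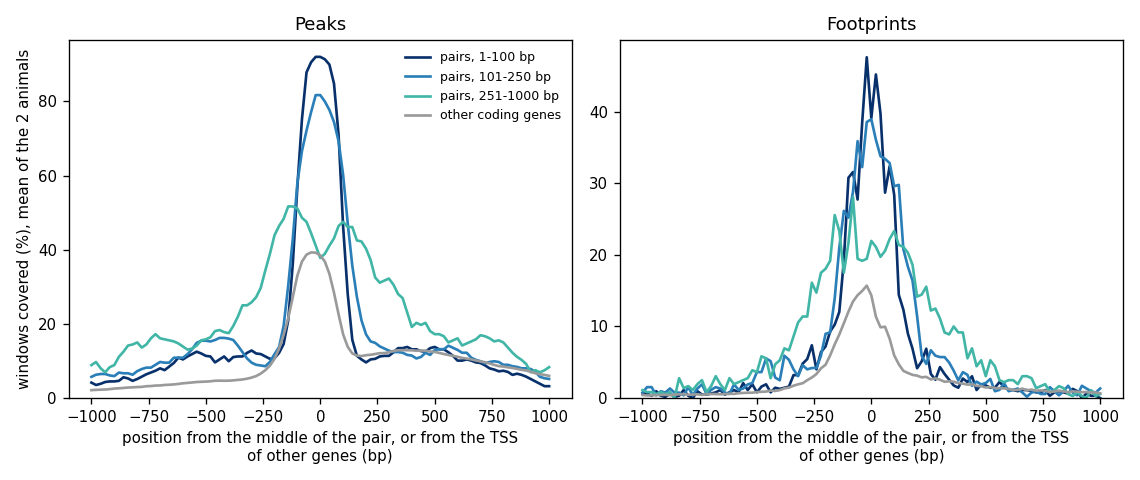
Share of windows covered by a peak (left) or a footprint (right) at each position from the middle of the pair, or from the TSS of other coding genes with upstream to the left, as the mean of the 2 animals. Pairs at 1 to 100 bp reach 91.3% peak coverage in animal 2 and 93.6% in animal 1, other genes 39.2% and 39.4%, and pairs at 251 to 1000 bp dip at their middle (35% in animal 2 and 40.6% in animal 1).

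At each limit of the rule the few nearest pairs on either side are given, too few to show or exclude a break. The longest distances inside the rule were those of Zfyve26/Rad51b (978 bp, heights 8.19 in animal 2 and 6.998 in animal 1), Asphd1/Sez6l2 (981 bp, 4.68 and 3.57) and Btf3l4/Txndc12 (987 bp, 7.28 and 6.13). Just outside lay Gpr108/Trip10 (1009 bp, 16.0 and 12.5), Sgsm2/Tsr1 (1011 bp, 10.1 and 6.17) and Serpina7/4930513O06Rik (1007 bp), which had no peak. At the short end, Bag4/Lsm1 (1 bp) had 16.4 and 11.4, Slc7a6os/Prmt7 (1 bp) 11.4 and 8.90, and Dhrs1/Nop9 (3 bp) 6.04 and 4.10. Just outside, with starts on the same base or overlapping, Nsa2/Gfm2 had 5.41 and 6.38, Arel1/Fcf1 9.36 and 5.93, and Cept1/Dram2 10.2 and 8.45, so the ranges overlapped.

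The highest pair was Hjurp/Trpm8, with heights of 29.7 in animal 2 and 27.8 in animal 1 (28.7 ± 1.31, SD, n = 2). Hjurp loads the centromeric histone CENP-A, and Trpm8 is the cold-sensing ion channel of sensory neurons. Rita1/Ddx54 (28.0 and 24.0), Fbh1/Ankrd16 (29.4 and 22.6) and Pdhx/Apip (26.6 and 24.1) were also among the highest 12. Fbh1 is a DNA helicase and Pdhx a component of the pyruvate dehydrogenase complex. Zfp654/Cggbp1 had 24.9 and 24.2, and Dnajb4/Fubp1 24.8 and 24.2. Dnajb4 is a co-chaperone of the HSP40 family, and Fubp1 a single-strand DNA-binding regulator of Myc. Also among them were Tecr/Dnajb1, Fam53a/Gm9903, Rnft2/2410131K14Rik, Apaf1/Ikbip and Gtf3c1/D430042O09Rik, with means between 23.0 and 24.1. Every one of the 12 was higher in animal 2 than in animal 1. So were 585 (83.2%) of the 703 pairs with a peak in both animals.

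Among pairs known from textbooks and the literature, 13 met the rule and all 13 had a peak in both animals. Over all pairs the share was 93.2%, to which this count is close. Atm/Npat, the DNA damage kinase and a coactivator of histone genes, had 21.2 in animal 2 and 17.9 in animal 1 (19.6 ± 2.37), in a peak over the Atm start 307 bp from that of Npat. Mcm4/Prkdc, a subunit of the replicative helicase and the DNA-dependent protein kinase, had 16.5 and 15.9. These repair and replication pairs stood above the median of all pairs in both animals. Brca1/Nbr1, with the homologous recombination gene Brca1, had 6.55 and 5.27, and Pxmp2/Pole, with the catalytic subunit of DNA polymerase epsilon, had 6.15 and 4.17. Both were below the median pair. Wrap53/Trp53 had 12.4 and 8.82, where Wrap53 guides telomerase to Cajal bodies and Trp53 is the p53 tumour suppressor gene.

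The other textbook pairs spanned the same range. Pdcd10/Serpini1, a gene of cerebral cavernous malformations in humans and the neuroserpin gene, 691 bp apart, had 20.6 in animal 2 and 20.9 in animal 1, in a peak between the starts. Recql/Golt1b, with a RecQ helicase, had 15.4 and 13.6. Psmb1/Tbp, a proteasome subunit and the TATA-binding protein, had 14.6 and 12.5. Hnrnpa2b1/Cbx3, whose human counterpart is a known ubiquitous chromatin opening element, had 10.3 and 13.5. Gart/Son had 13.6 in a peak beyond a TSS in animal 2 and 9.31 in another peak, over the Gart start, in animal 1, and Mrps12/Sars2 7.23 and 8.30. Of these 13 pairs, 4 were lower in animal 2 than in animal 1, among them Pdcd10/Serpini1, Hnrnpa2b1/Cbx3 and Mrps12/Sars2.

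A further 10 textbook pairs had overlapping starts and so are no members. They are among 446 such pairs, of which 409 (91.7%) had a peak in both animals, with median heights of 8.85 in animal 2 and 7.25 in animal 1. Psmb9/Tap1, an immunoproteasome subunit and the antigen peptide transporter, had 21.9 and 17.9. Hspd1/Hspe1, the mitochondrial chaperonins, had 15.3 and 16.3. Col4a1/Col4a2, basement membrane collagens, had 0.625 and 0.351, the lowest of the 10.

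**Figure D3:**
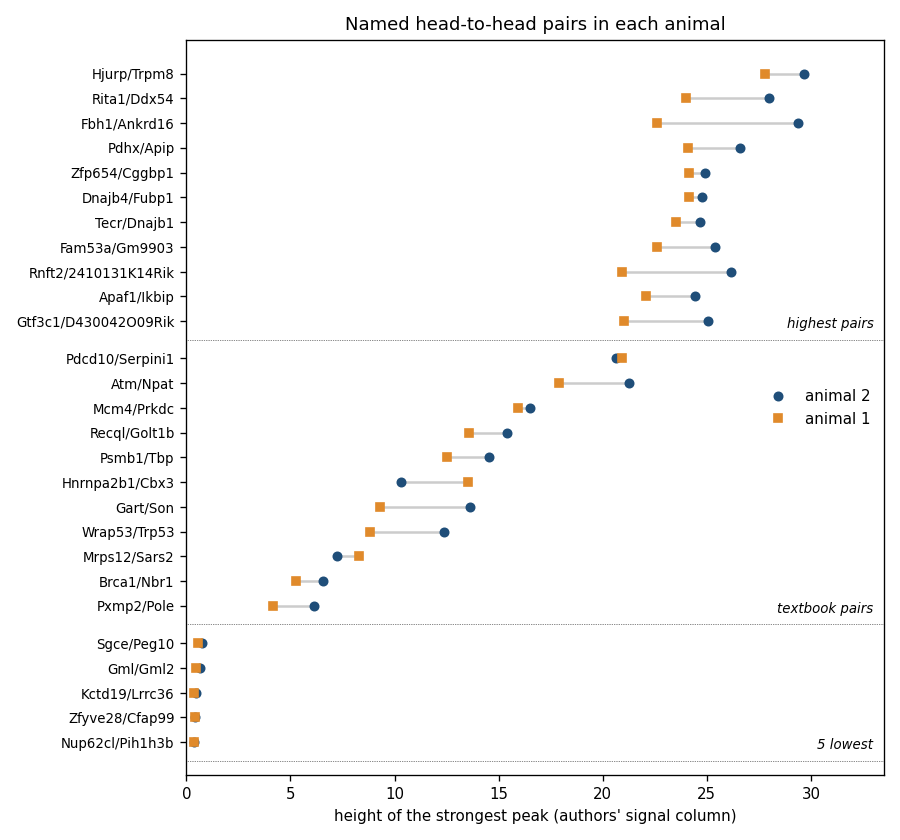
Height of the strongest peak (authors' signal column) in animal 2 (circles) and animal 1 (squares) for 11 of the 12 highest pairs, 11 of the 13 textbook pairs that met the rule and the 5 lowest pairs with a peak in both animals. The highest pairs shown lie between 20.9 and 29.7, and the 5 lowest below 1 in both animals.

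By gene class, pairs were spread widely. Mitochondrial ribosome, respiratory chain and import genes sat in 46 pairs, 45 of them with a peak in both animals, and DNA repair and replication genes in 27, all with a peak. All 27 cell division pairs, all 12 chaperone pairs, all 8 proteasome pairs and all 7 cilium pairs also had one, beside 93.2% of all pairs, a share to which these counts are close. Median heights, as the mean of the animals, were 9.27 for mitochondrial, 9.99 for repair, 9.28 for cell division and 11.7 for chaperone pairs, against 9.88 for all 703. These 4 classes lay close to all pairs. Lower medians were found for the 8 proteasome pairs (7.43), the 7 of 8 cytosolic ribosomal protein pairs with a peak (6.56) and the 6 immune pairs with a peak (6.33). Genes of the same class outside pairs were higher for proteasome (8.96) and cytosolic ribosomal proteins (10.3). For aminoacyl-tRNA synthetases they were nearly level (8.96, against 8.89 at pairs). They were lower in the mitochondrial (8.24), repair (8.02), cell division (7.61), chaperone (9.39) and immune (3.25) classes. Cilium (5.88) and zinc finger genes outside pairs (5.05, against 9.33 at pairs) were lower as well. The cilium pairs had a median of 15.5, among them Tnfaip1/Ift20 at 18.3 and Cramp1l/Ift140 at 15.5, both with an intraflagellar transport gene. By annotation alone, 26% of the repair and replication genes and 22.8% of the mitochondrial genes form pairs, against 6.78% of all coding genes. Classes were taken by gene symbol, and the immune class includes genes with Trim symbols. Its genes sat in 9 pairs (2.11% of the class), 6 of them (66.7%) with a peak in both animals, against 93.2% of all pairs. Slc27a5/Trim28 was among the pairs without one, although another annotated coding start of Trim28 held a peak in both animals. Plgrkt/Cd274, with the PD-L1 gene, had 9.25 in animal 2 and 6.45 in animal 1, while Smyd1/Cd8b1, with a T cell co-receptor chain, had 0.957 and 0.680. The collagen pair Col4a4/Col4a3 had no peak.

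The replication-dependent histone pairs stood apart from these classes in height and between the animals. Their genes lie in clusters and make the core histones of S phase. There were 14 such pairs, 13 of them with both genes in the class, and 11 (78.6%) had a peak in both animals. The share was 93.2% over all pairs and 90.0% over histone genes outside the pairs. Hist1h2bf/Hist1h2ad was the highest by mean, with 6.98 in animal 2 and 7.38 in animal 1. Hist2h2ac/Hist2h2be had 5.50 and 8.44, the highest value in animal 1, and Hist1h2ag/Hist1h2bj 4.49 and 7.13. Hist1h2ae/Hist1h2bg was the lowest by mean, with 1.66 and 4.07, in a peak beyond a TSS in animal 2 and over the Hist1h2bg start in animal 1. In 10 of the 11 the height was lower in animal 2, the exception being Hist1h2ah/Hist1h2bk with 4.09 and 4.06. Among all 703 pairs, 118 were lower in animal 2.

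The median height of the 11 histone pairs was 3.67 in animal 2 and 4.71 in animal 1, against 10.8 and 8.95 over all 703. With the animals averaged at each promoter, it was 4.08, against 5.22 for the histone genes outside the pairs. All other coding promoters with a peak in both animals had 5.98. At the 11 histone pairs the log2 ratio of animal 2 over animal 1 had a median of -0.67 (from -1.29 to 0.01). It was -0.66 over the 10 pairs whose strongest peaks overlapped between animals. The histone genes outside the pairs had a median of -0.20, and the pairs as a whole 0.21. All 14 windows held the CCAAT word, with 2 to 5 copies and a median of 3, against a median of 1 over all pairs, and 10 of the 14 held TATAAA, against 7.43% of all pairs. Histone genes of a cluster are known for similar coding sequences, and how reads were placed among them was not given in the sources used here. Their heights, and the pairs counted as without a peak, are therefore reported as uncertain.

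Across all pairs the animals were close. The log2 ratio of heights, animal 2 over animal 1, had a median of 0.21 (SD over pairs 0.26), against 0.27 at other promoters. Pearson's r of log2 heights over the 703 pairs was 0.965 and Spearman's rho 0.954, given as a description across pairs of the same 2 libraries. Only 3 pairs (0.427%) were more than 2-fold apart, against 0.933% of other promoters. Gm9922/Lmo7 had 1.11 in animal 2 and 0.494 in animal 1 (log2 ratio 1.17). Tst/Mpst, a pair of sulphurtransferase genes of detoxification and sulphide metabolism, had 2.02 and 5.38 (-1.42). The strongest peak was not the same there, over the Tst start in animal 2 and beyond a TSS in animal 1. The third was Hist1h2ae/Hist1h2bg (-1.29). Next came Tepsin/Ndufaf8 with 9.95 and 19.1 (-0.94), Ankib1/Krit1 with 8.06 and 4.20 (0.94), Rad51c/Tex14 with 1.02 and 0.566 (0.85) and Hist1h2ac/Hist1h2bc with 2.76 and 4.71 (-0.77). Pfdn6/Wdr46 had 6.27 and 3.73 (0.75), in a peak over the Wdr46 start in animal 2 and a different one over the Pfdn6 start in animal 1.

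**Figure D4:**
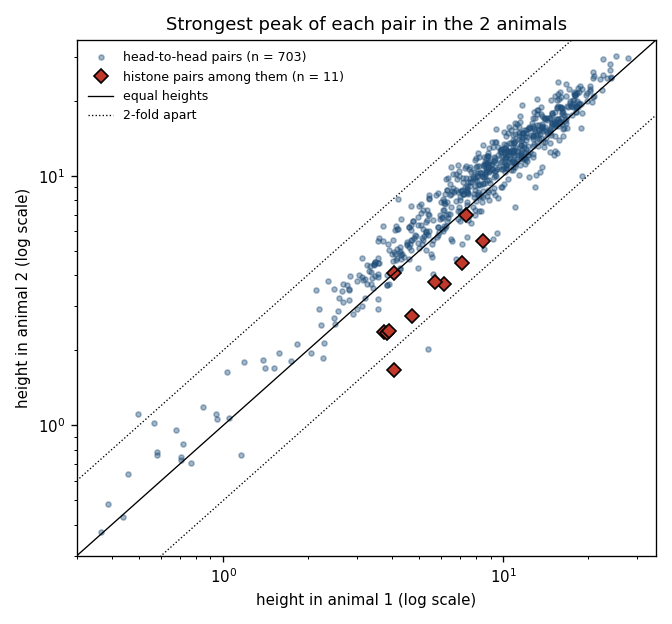
Height of the strongest peak in animal 2 against animal 1 (authors' signal column, log axes) for the 703 pairs with a peak in both. The solid line marks equal heights and the dotted lines a 2-fold difference. Of the 11 histone pairs (diamonds), 10 lie below the line of equal heights and Hist1h2ah/Hist1h2bk lies on it, while 585 of the 703 pairs lie above it.

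At the low end, 5 pairs had the lowest mean heights among those with a peak in both animals. The lowest was the X-linked Nup62cl/Pih1h3b with 0.373 in animal 2 and 0.365 in animal 1. Zfyve28/Cfap99 had 0.428 and 0.437, Kctd19/Lrrc36 0.482 and 0.387, and Gml/Gml2 0.638 and 0.458. The fifth was Sgce/Peg10, with 0.760 and 0.580. Both genes are imprinted and expressed from the paternal copy, and the weak peak there was among the widest of all pairs, 420 bp in animal 2 and 660 bp in animal 1. Peg3/Usp29, another imprinted pair, had no peak in either animal. Signal from each parental copy cannot be told apart in these files. On the X chromosome, 14 of 20 pairs (70%) had a peak in both animals, against 93.9% on the autosomes. Their median height was 6.27 in animal 2 and 5.53 in animal 1, against 10.8 and 9.08 on the autosomes. Other coding promoters were likewise lower on the X, with a peak in both animals at 33.7% against 48.2% on the autosomes.

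No peak in either animal was found at 46 pairs (6.10%), none of which held a footprint. Their median CpG o/e was 0.393, and 23 lay below 0.4. With the shortest distances among them, Best1/Rab3il1 (36 bp, CpG o/e 0.0309), Ppp1r3d/Fam217b (52 bp), Rnf151/Rps2 (53 bp), 4930430F08Rik/1700017N19Rik (61 bp), Col4a4/Col4a3 (72 bp) and Dgcr2/Tssk2 (75 bp) may be named. Best1 is a chloride channel of the retinal pigment epithelium and Tssk2 a testis-specific kinase. Rps2, by contrast, encodes a ribosomal protein that every cell uses. For Rps2 and for 7 more of the 46 pairs, another annotated coding start of 1 gene did hold a peak in both animals, so the peak lay at a start other than the most 5' one. Trim28, Zfp574 and Rnf14 were among these genes. Rich in CpG and yet without a peak were 7 pairs, among them Ppp1r3d/Fam217b (1.01), Smc1b/Ribc2 (0.995) and Nr2e1/Ostm1 (0.802). Smc1b is a meiotic cohesin subunit and Nr2e1 a nuclear receptor of neural stem cells. Hist1h2bq/Hist1h2ao and Hist1h2ap/Hist1h2br were also of these 7. As said above for histone genes, how reads were placed there is not known, so these absences are uncertain.

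The pairs with most footprints were wide ones. Ttc9c/Hnrnpul2 (677 bp) held 16 footprints in animal 2 and 19 in animal 1, Rnf5/Agpat1 (572 bp) 19 and 16, Fiz1/Gm44973 (799 bp) 17 and 19, and Cep57/Fam76b (609 bp) 16 and 15. Cep57, a centrosomal protein gene, and Fam76b had heights of 20.04 and 19.96, in a peak over the Fam76b start. Windows of such pairs are longer, and these counts are per window.

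Consensus words of transcription factors were searched on both strands in the window from 250 bp upstream to 50 bp downstream of each TSS, for 1487 pair members and 20451 other genes. A match is a description of letters, not of binding, and windows of a pair overlap, so 1 word can count for both genes. The ETS family was searched as CCGGAAGT, NRF1 as GCGCATGCG, YY1 as AAGATGGCG, and SP and KLF factors as GGGGCGGGG. Nuclear factor Y was searched as CCAAT and the cAMP response element (CRE) as TGACGTCA. The E-box was CACGTG, and the word of ZNF143 was ACTACAATT, that of RFX factors GTTGCCATG, that of E2F TTTCGCGC and the Kaiso-type palindrome TCTCGCGA. The TATA box was searched as TATAAA and CTCF as CCACNAGGG. For AP-1 the word was TGANTCA, for PU.1 GAGGAAGT, for IRF factors GAAANNGAA, for NF-kB GGGANTTCC and for RUNX factors TGTGGTT. None contains another, and the ETS and PU.1 words share GGAAGT.

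Of these 18 words, 12 were more frequent at pair members. The Kaiso-type palindrome stood in 5.25% of pair members against 1.10% of others, YY1 in 5.65% against 1.43%, and ETS in 13.0% against 4.09%. NRF1 stood in 4.77% against 2.32%, CRE in 4.51% against 2.28%, and SP and KLF in 22.1% against 14.0%. Each of these 6 words contains a CpG. RFX, ZNF143 and NF-kB words, without a CpG, were also more frequent, at 1.01% against 0.597%, 0.740% against 0.479% and 2.55% against 1.87%. The pair windows were richer in CpG, and the part of this in the word shares was not tested. TATAAA was less frequent at pair members, 4.10% against 13.3%. The AP-1 word stood in 3.16% against 7.19%, and RUNX, a word of blood cell regulators, in 2.29% against 5.30%. CCAAT differed little, 44.0% against 38.7%, and its order turned round in a window from 500 bp upstream to 100 bp downstream (57.7% against 58.4%).

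Many of the words lay in footprints. Sites were counted whether or not the promoter held a peak. In animal 2, 93.6% of pairs and 49.9% of other promoters held one, and in animal 1, 93.5% and 48.9%. The part of this difference in the footprint shares below was not tested. Of 128 NRF1 sites at pair members, 99.2% overlapped a footprint in animal 2 and 96.9% in animal 1, against 79.7% and 78.3% at others. CRE sites did so in 91.5% in each animal, against 71.7%, and SP and KLF sites in 81.7% and 80.6%, against 63.0% and 61.7%. CCAAT sites did so in 42.6% and 35.7%, against 19.3% and 15.8%. Kaiso-type sites went the other way in both animals, with 74.2% and 76.6% at pair members against 81.4% and 78.2% at others. In animal 1 alone, so did the few E2F sites (50% against 53.3%) and CTCF sites (25% against 31.2%). In the sequences above, the TCTCGCGA and CCAAT words between Dnajb4 and Fubp1 and the GCGCATGCG word between Apaf1 and Ikbip, on the other strand, overlapped footprints in both animals. Of 4 CCAAT words between Recql and Golt1b, 2 overlapped footprints in both animals. The GGGGCGGGG word between Ppp1r3d and Fam217b overlapped none.

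**Figure D5:**
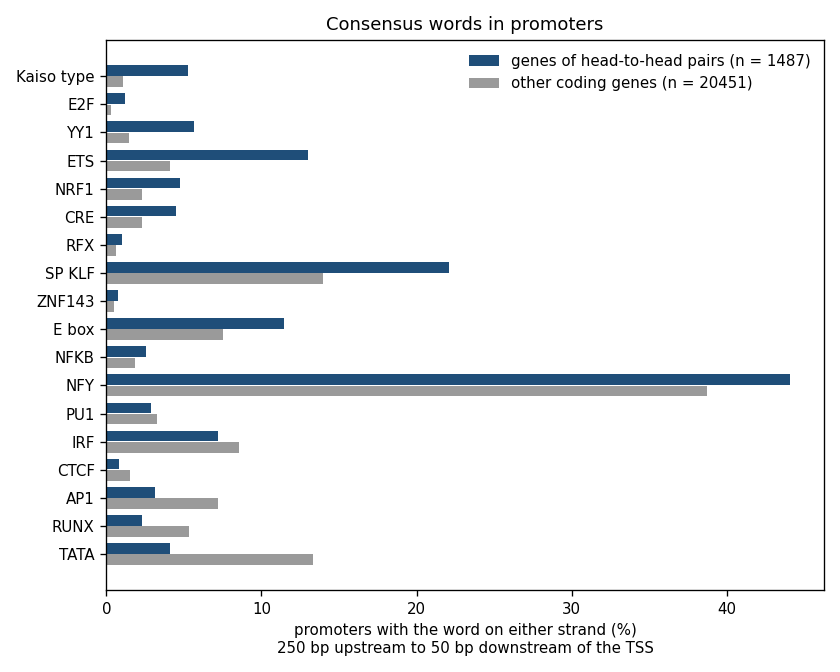
Share of promoters that hold each consensus word on either strand, for genes of head-to-head pairs (upper bars) and other coding genes (lower bars), ordered by the ratio of the shares. The Kaiso-type word is at the top with 5.25% against 1.10%, and TATA at the bottom with 4.10% against 13.3%.

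Within the pairs, words went with small differences in height. The 45 pairs with an NRF1 word in the pair window all had a peak in both animals, as did the 119 with an ETS word, beside 92.8% of pairs without the NRF1 word and 92.0% without the ETS word. With the CRE word the share was 92.1%, against 93.3% without it, and the Kaiso-type (91.1% against 93.4%) and TATAAA words (91.1% against 93.4%) also went with a lower share. So did the RUNX (90% against 93.4%) and PU.1 words (91.2% against 93.3%). The lowest share of all words searched was that with the AP-1 word, 82.4% of 51 pairs against 94.0% without it. Median height was 11.8 in animal 2 and 11.2 in animal 1 with the NRF1 word, against 10.5 and 8.86 without it. With the CRE word (38 pairs) it was 13.6 and 11.6, against 10.6 and 8.88 without it. With CCAAT (421 pairs, 55.8%) it was 11.4 and 9.84, against 9.87 and 8.26 without it. With TATAAA (56 pairs) it was 8.73 and 6.998, against 10.9 and 9.19 without it, and 10 of these 56 were histone pairs. With the ETS word the medians of 10.8 and 9.31 lay close to the 10.7 and 8.88 without it.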

How the data were processed

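DNase-seq libraries of 2 spleens were used as the authors deposited them, with coordinates on mm10 per the labels; the aligner and peak caller were not given in the sources used here. Per the file headers and listings, each library has its own peaks, footprints and cut-rate intervals, made from that library alone. The peak height is the authors' deposited signal column, whose scale is not stated. Heights were whole multiples of 0.00679 in animal 2 and 0.00716 in animal 1 (tolerance 0.01 of a step), and the lowest peak was 6 steps in animal 2 and 8 in animal 1. Read depth is unknown. The authors' cut-rate intervals carry a deposited p-value (FDR up to 0.05), and their footprints a constant p-value of 0.01.

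Pairs and windows were built from GENCODE M21, and words and CpG were read from GRCm38.p6. Overlaps were counted with Python 3.11.15, numpy 2.4.6, pandas 2.3.3 and bedtools 2.31.1, tested on simulated pairs; figures used matplotlib 3.10.9. A peak counted by at least 1 bp of overlap and a footprint by its middle. Other promoters were measured from 330 bp upstream to 200 bp downstream of the most 5' TSS, and include genes whose starts overlap a divergent gene. In 42 pairs the window overlaps that of another pair, and 21 genes are in more than 1 pair. CpG o/e classes were split at 0.4 and 0.75. Named pairs were the 12 highest and 5 lowest by mean height, the 6 without a peak at the shortest distances, the 4 highest and 4 lowest log2 ratios, textbook pairs, extremes of each gene class, and the 4 with most footprints or the widest peak; a few pairs that the rule names are not reported here, and pairs outside it were named after their values were seen. Members and lists were chosen with earlier results of these data known. Nothing in the labels says more of the replicates than that the mice were separate animals, so the SD over 2 is imprecise. Settings varied are given under how the results depend on the processing.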

Additional observations from a re-analysis of the deposited data

Results flagged for a closer look

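The cut-rate intervals, which list stretches with more cuts than their surroundings and were not used for the comparisons, held signal at a few of the 46 pairs without a peak. In animal 2, 3 of these pairs overlapped an interval, and in animal 1 only 1 did. The pair found in both animals was Ndufa5/Asb15, with a lowest FDR of 9.66e-29 in animal 2 and 4.14e-32 in animal 1, and its nearest peak lay 53 bp outside the window with heights of 9.30 and 6.65. Ndufa5 is a subunit of respiratory complex I. Col4a4/Col4a3 (FDR 0.0440) and Sobp/9030612E09Rik (FDR 0.0300) had an interval in animal 2 alone. All 706 pairs with a peak in animal 2, and all 705 in animal 1, overlapped an interval.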

How the results depend on the processing

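The direction of the difference in share and of the log2 ratio was the same in each alternative; exceptions within them were the median height below a CpG o/e of 0.4 in animal 1, lower at pairs, and CCAAT, less frequent at pair members in the wider window. The main values, as means of the animals, are a median height of 9.80, 6.92 footprints per window, a difference in share with a peak of 44.2 points, a log2 ratio of heights of 0.80 and 61.2% of strongest peaks over both TSS or between them; alternatives for that last share were chosen after seeing the data. The median height stayed within the spread between animals in each alternative. The shorter peak list gave a difference of 47.3 and a log2 ratio of 0.66. Without a flank there were 2.87 footprints, 47.0 points, a ratio of 0.73 and 64.6%. A flank of 500 bp gave 8.11 footprints, 41.7 points and 59.0%. Distances of at most 500 bp (684 pairs) gave 6.84 footprints, 45.1 points and 65.2%. With the peak midpoint in the window the values were 45.9 points, 0.78 and 62.8%. Adding overlapping starts (1200 pairs) gave 6.84 footprints, 45.3 points, 0.75 and 45.2%. Starts of basic coding transcripts (778 pairs) gave 7.11 footprints, 43.0 points, 0.82 and 58.0%. Measuring 200 bp on each side of each TSS gave 5.35 footprints, 42.1 points and 0.77. Against the 17327 others with no gene start within 1 kb the values were 48.8 points and 0.89. Summed heights gave 0.87, and only peaks above a library's median height 49.9 points, 0.53 and 61.9%. Within CpG classes they were 14.0 points and 0.58. Leaving out each animal in turn gave 8.91 to 10.7 for height, 6.87 to 6.96 footprints, 43.8 to 44.6 points, 0.79 to 0.81 and 60.9% to 61.4%. More frequent words at pair members numbered 11 of 18 in the wider window, against 12. No paired analysis was possible because the series has 1 group. The lowest listed peaks were 6 height steps in animal 2 and 8 in animal 1, which limits what weak pairs can show.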
